A study of Homo sapiens with 6 samples.

Results

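The proteasome genes were examined after knockdown of PRMT1 in MM.1S, a long-established cell line from a human multiple myeloma. PRMT1 is the main enzyme that places asymmetric dimethyl groups on arginine. They were taken as the protein-coding rows of the expression table named PSMA to PSMG with a number, without the interferon-inducible catalytic subunits PSMB8, PSMB9 and PSMB10, and with POMP, ADRM1, NFE2L1 and DDI2 added. This gave 49 of the 58735 genes, picked by name, although the rule was set with earlier results of these data known. The RNA-seq held 3 control libraries, transfected with the negative control siRNA si-NC, and 3 PRMT1 KD libraries, transfected with si-PRMT1. In both groups the siRNA was used at 100 nM and cells were collected after 72 h, and a transient siRNA leaves part of the target transcript. The study's methods speak of dependent biological replicates, and the labels do not say whether they were separate cultures, so p-values measure the spread between these libraries, which may be technical.

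The proteasome is the protease that degrades ubiquitin-tagged proteins in the cytosol and nucleus. Its core particle is a barrel of outer alpha rings, which form the gate, and inner beta rings, which hold the cutting sites, and regulatory particles cap its ends, with a base of ATPases that unfold and thread the substrate and a lid that removes ubiquitin. Plasma cells and myeloma cells secrete large amounts of immunoglobulin and depend strongly on this protease, and bortezomib, a myeloma drug, inhibits the chymotrypsin-like site made by PSMB5. NFE2L1 (also called NRF1) is the transcription factor that raises proteasome genes when the protease is impaired, after DDI2 has cleaved it.

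Values are FPKM, fragments on a gene divided by its exon length and by the scaled size of the library. Differences were tested with limma on log2(FPKM + 1), over the 13585 genes with a mean of at least 1 FPKM, and log2 fold changes are PRMT1 KD minus control on that scale. A gene is called changed at a Benjamini-Hochberg adjusted p under 0.05, and the smallest p that an exact permutation test of 3 libraries against 3 can give is 0.1. Libraries held 14439217 to 16465026 reads on genes. PRMT1 was at 61.7, 62.8 and 58.9 FPKM in the control libraries and 13.3, 14 and 12.5 FPKM in the PRMT1 KD libraries, 21.7% of the control mean (limma, adjusted p = 2.8e-05). All 8 plasma cell markers passed the filter, and 1 of them was called changed (SLAMF7, log2 fold change -0.65). At an unadjusted p under 0.05 (limma), 3 markers were lower (SLAMF7, PRDM1 and XBP1) and 2 higher (CD38 and MZB1), against 19.5% of all genes. In the same markers the groups did not overlap, against 25.9% of all genes. Of 9 markers of other cell types, 8 stayed under the filter and CD3E, a T cell receptor chain, averaged 35.8 FPKM, while its partner CD3D had at most 0.845 FPKM in any library and MS4A1 and HBB had 0.

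Proteasome transcripts stayed close to their control levels after PRMT1 knockdown, and 1 of them passed the test. Of the 49 members, 46 were tested, and PSMC3, an ATPase of the base, fell (1 of 46, 2.17%). Over all genes tested, 2.05% were called, 0.986% as lower and 1.07% as higher. At an unadjusted p under 0.05 the count was 6 of 46 (13%, against 19.5% of all genes), with 5 lower and 1 higher in PRMT1 KD, where 9.47% and 10.1% of all genes lay. In 10 members (21.7%) the groups did not overlap, 7 lower and 3 higher, against 25.9% of all genes, 12.3% lower and 13.6% higher. The 3 members that were not tested were PSMA2 and PSMA6, each under 1 FPKM on average, and PSMB11, which had 0 reads in every library.

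The spread of the fold changes was narrow. The distance from the estimate to either end of its 95% interval had a median of 0.14 for the members and 0.20 for all genes tested, on the log2 scale, and the members were also more abundant, with a median level of 22.9 FPKM against 6.31 FPKM. For 41 of 46 members (89.1%) the whole interval lay within a 1.25-fold change either way, against 50.3% of all genes. The members are all protein-coding, and 6316 of the 10107 protein-coding genes tested lay within this bound, with a median distance of 0.18. The exceptions among the members were PSMC3, PSMC4, PSMA8, PSMG3 and DDI2. The median log2 fold change was -0.025 over the members and 0.0095 over all genes, and 29 of 46 members (63%) lay below 0, against 47.4% of all genes. The median size of the change regardless of sign was 0.051 for members, 0.11 for all genes and 0.093 for the protein-coding genes tested. The plot of the fold changes orders the members by class.

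**Figure D1:**
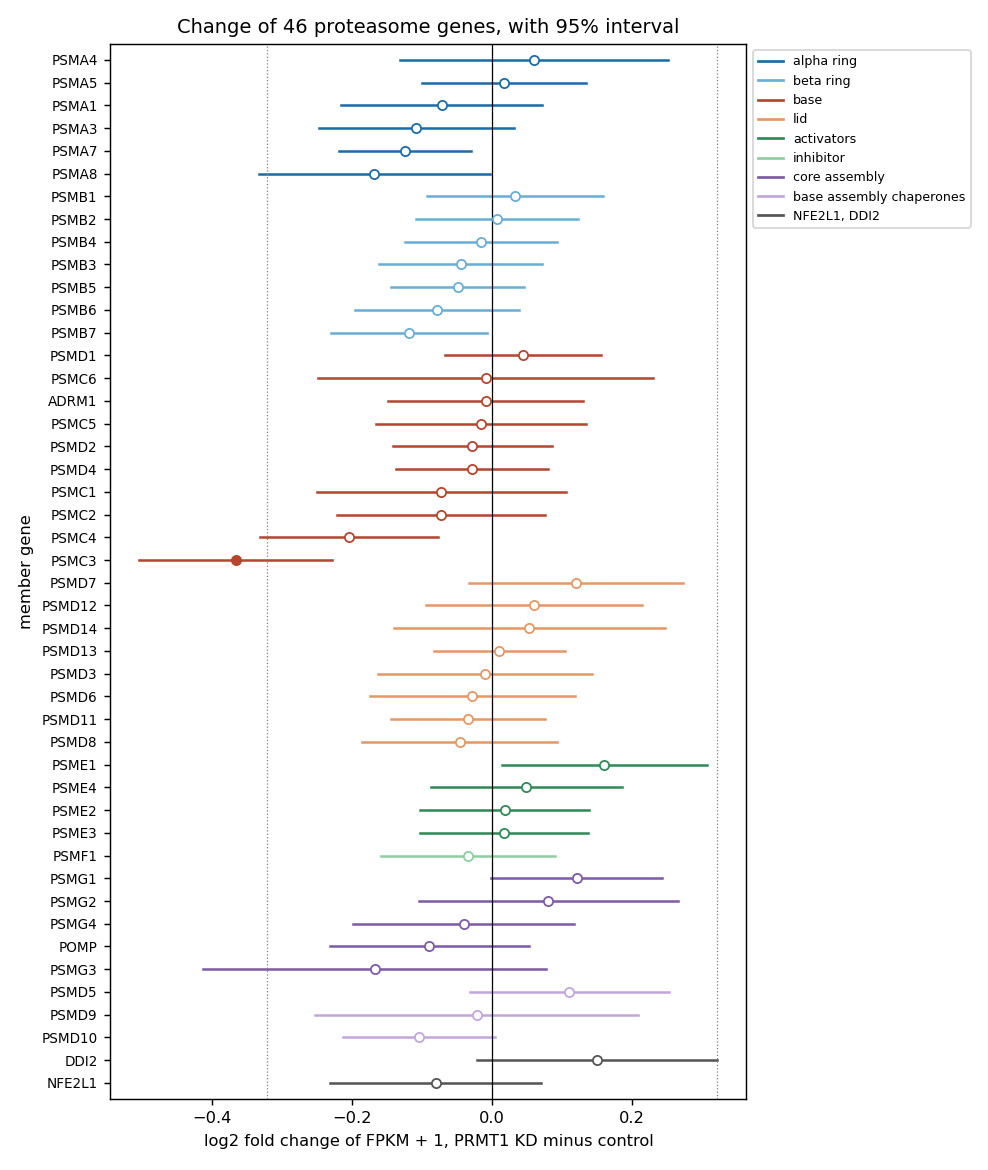
Log2 fold change of FPKM + 1 (PRMT1 KD minus control) of the 46 tested members, with bars for the 95% interval from limma, coloured by class, filled where the adjusted p is under 0.05 and with dotted lines at a 1.25-fold change. PSMC3 is the filled point at -0.37, and the others are open, from -0.20 for PSMC4 to 0.16 for PSME1.

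The promoters of the members differed by class in the letters they hold, and those of PSMC3 and PSMC4, the ATPase genes with the lowest fold changes, are shown beside each other. RefSeq promoter windows (GRCh38.p14, 250 bases before to 50 bases after the gene's start) were matched for 43 of 49 members. PSMA7, PSMB1, PSMB6, PSMB7, PSMD4 and PSMG3 were not matched. The letters searched on both strands were TGANNNNGC, CCAAT, the box bound by NF-Y, and CCGGAA, a core bound by ETS family factors. TGANNNNGC is looser than the antioxidant response element that NFE2L1 binds with small MAF proteins. A match to these letters need not be that element. Matches of different motifs overlapped in 2 members. The genes as placed in the files begin upstream of the RefSeq start in both, so the windows are printed up to that point only, 216 bases for PSMC3 and 90 bases for PSMC4, read 5′ to 3′ on the gene's strand with capitals for the matches. PSMC3 held all 3 motifs there, and PSMC4 held TGANNNNGC at 1 place of the 3 in its whole window.
PSMC3, chr11:47426474-47426689, minus strand: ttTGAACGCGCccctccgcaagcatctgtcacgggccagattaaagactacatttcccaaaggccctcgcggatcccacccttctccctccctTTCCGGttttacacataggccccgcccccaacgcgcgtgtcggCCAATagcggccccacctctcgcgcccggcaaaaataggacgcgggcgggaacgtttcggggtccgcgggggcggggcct
PSMC4, chr19:39970915-39971004, plus strand: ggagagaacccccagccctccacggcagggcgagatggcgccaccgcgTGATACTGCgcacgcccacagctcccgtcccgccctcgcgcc

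CCGGAA was present in 14 of 17 matched promoters of the regulatory particle (82.4%) and in 1 of 12 of the core particle (8.33%), where PSMA8 held it. The core class has 16 genes, and PSMA7, PSMB1, PSMB6 and PSMB7 are missing from this comparison. Of the 18 regulatory genes PSMD4 is missing. It was in 2 of 5 promoters of the activators and their inhibitor, in 21 of 43 members in all (48.8%), in 17.6% of all 27305 promoters and in 22.9% of the 15843 promoters of protein-coding genes. The regulatory promoters without it were those of PSMC4, PSMD1 and PSMD3. The 10 windows of 30 bases that follow are those of the regulatory particle where the match nearest the start lies wholly before it, and show that the letters stand on either strand and at distances from 152 bases before the start in PSMC3 to 2 bases before it in PSMD12. Of these, 8 lie inside the gene as the files place it, all but those of PSMC3 and PSMC6, so before the RefSeq start does not mean outside every transcript. Capitals mark CCGGAA or its reverse complement.
PSMC3, chr11:47426579-47426608, minus strand: ttctccctccctTTCCGGttttacacatag
PSMC5, chr17:63827378-63827407, plus strand: ccgcccattgacCCGGAAttcttctctgcc
PSMC6, chr14:52707081-52707110, plus strand: agacggggccaaCCGGAAggggagggctca
PSMD2, chr3:184299135-184299164, plus strand: tcgccccggcgtTTCCGGtcgcaggcgggc
ADRM1, chr20:62302804-62302833, plus strand: cccgcgcttccgCCGGAAaagagccgccgg
PSMD6, chr3:64023514-64023543, minus strand: gcggagacgggaCCGGAAgccgggccgcag
PSMD8, chr19:38374543-38374572, plus strand: gcaaaagccaacTTCCGGtcaccatcttga
PSMD11, chr17:32444466-32444495, plus strand: ccgggtgtgtgtTTCCGGcgtcggcggccg
PSMD12, chr17:67366567-67366596, minus strand: tgcgcgggcaacTTCCGGtgtgggtgacga
PSMD13, chr11:236952-236981, plus strand: cgccgctcggcgCCGGAAgtgagtgagcat

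TGANNNNGC was less uneven, in 9 of 12 core promoters (75%), 9 of 17 regulatory promoters (52.9%) and 3 of 5 in the activator class, against 42.1% of all promoters. PSMA5 held 5 matches of it. CCAAT was in 7 of 12 core promoters (58.3%), 9 of 17 regulatory promoters (52.9%) and 1 of 5 activator promoters, against 35.7% of all. These are matches of letters in a fixed window and not bound sites.

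The levels of the members ran from PSMB4, a beta ring subunit, at a mean of 150 FPKM over the 6 libraries, to PSMA2 at 0.902 FPKM, with PSMB11 at 0. PSMB11 encodes the beta subunit of the thymus proteasome, and 3 reads, the limit that a count of 0 allows, would be 0.0859 to 0.0988 FPKM per library (counting error only). The plot of levels shows that members of a single ring, which are present in equal number in each particle, differed widely in FPKM. In the alpha ring PSMA7 averaged 148 FPKM, PSMA3 21.4 FPKM, PSMA4 14.9 FPKM and PSMA5 14.2 FPKM. In the beta ring the subunits other than PSMB11 ran from 23.6 FPKM (PSMB2) to PSMB4. Base subunits ran from 7.70 FPKM (PSMC1) to 97.6 FPKM (PSMD4, a ubiquitin receptor), and lid subunits from 7.84 FPKM (PSMD6) to 35.7 FPKM (PSMD8). PSMB4 at 153, 156 and 144 FPKM in control and 152, 145 and 150 FPKM in PRMT1 KD overlapped with PSMA7 in control, where PSMA7 had 159, 156 and 149 FPKM, and lay above it in PRMT1 KD, where PSMA7 had 142, 143 and 140 FPKM.

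**Figure D2:**
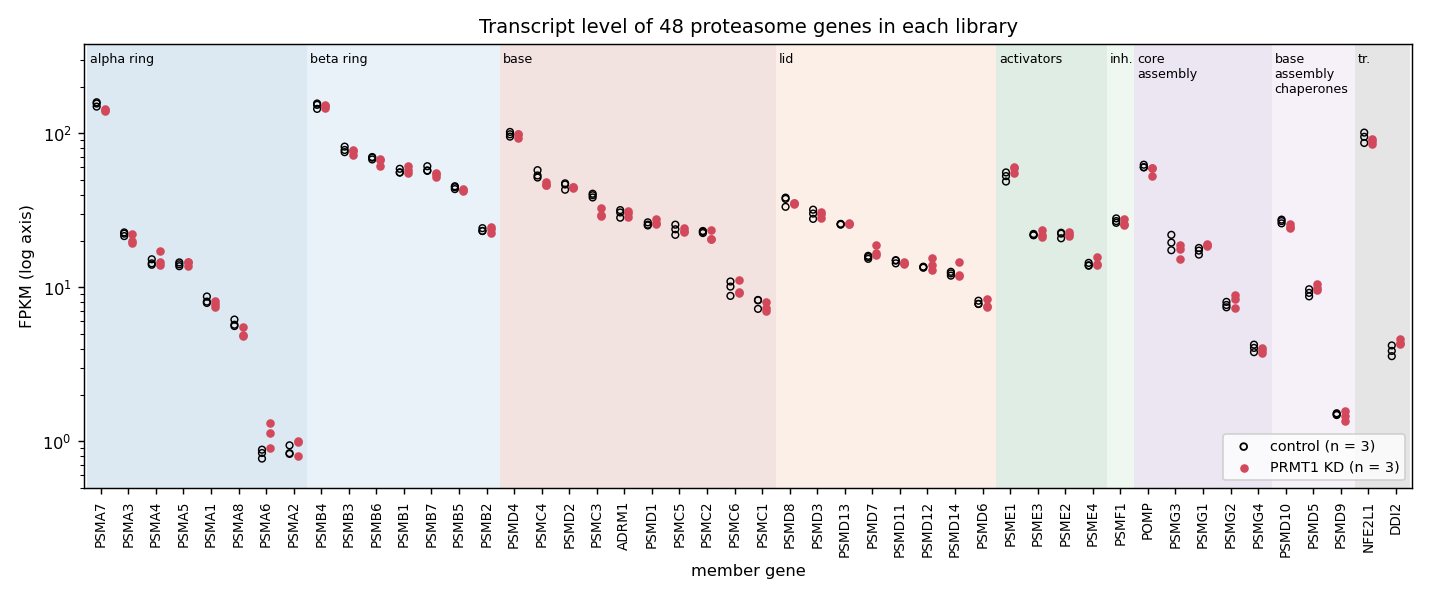
FPKM on a log axis of 48 members in each library, control as open and PRMT1 KD as filled points, grouped by class (inh., the inhibitor PSMF1, and tr., the transcription factor NFE2L1 with DDI2) and ordered by mean level within it; PSMB11, at 0, is left out. The spread between members of a class is far wider than the spread between libraries, and PSMA6 and PSMA2 sit near 1 FPKM.

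Several of the low levels coincide with overlaps in the annotation. The deposited FPKM divides by the length of all exons of a gene, and the coordinates and exon lengths of all 58735 genes were those of GENCODE release 29 on GRCh38. In 4 members over 50% of the coding bases of the principal transcript lie inside exons of another gene on the same strand. The shares are 100% in PSMA2 (inside AC010132.3), 91% in PSMA1 (AC018523.2), 89.7% in PSMA6 (AL121594.1) and 68.3% in PSMD9 (AC069503.2), while 44 of 49 members have 0%. These 4 members averaged 0.902, 8.0, 0.975 and 1.48 FPKM, and they include the 3 lowest members above 0. Reads that fall in the exons of more than 1 gene are dropped in the default of featureCounts. The setting used here is not given in the sources used here. The overlapping genes held few reads, 0 in every library for AC018523.2 and 0 to 2 for AC010132.3 and AL121594.1. AC069503.2 held 1 to 3 reads a library. Where shared reads are dropped, the FPKM of these 4 members comes from their other exon stretches alone. The part of this overlap in the low levels was not tested.

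PSMA2 had 0.837, 0.941 and 0.828 FPKM in control and 0.806, 0.989 and 1.01 FPKM in PRMT1 KD, from 71 to 82 reads a library, and its groups overlapped. PSMA6 had 0.882, 0.839 and 0.772 FPKM in control and 1.32, 0.907 and 1.13 FPKM in PRMT1 KD, from 83 to 142 reads a library. Every PRMT1 KD library lay above the control libraries, without a test since the gene is under the filter. With 89.7% of its coding bases in exons of another gene and 24.6% of its windows found elsewhere, these reads may not stand for its coding transcript. PSMA1 was tested and gave a log2 fold change of -0.07 (95% interval -0.22 to 0.07).

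**Figure D3:**
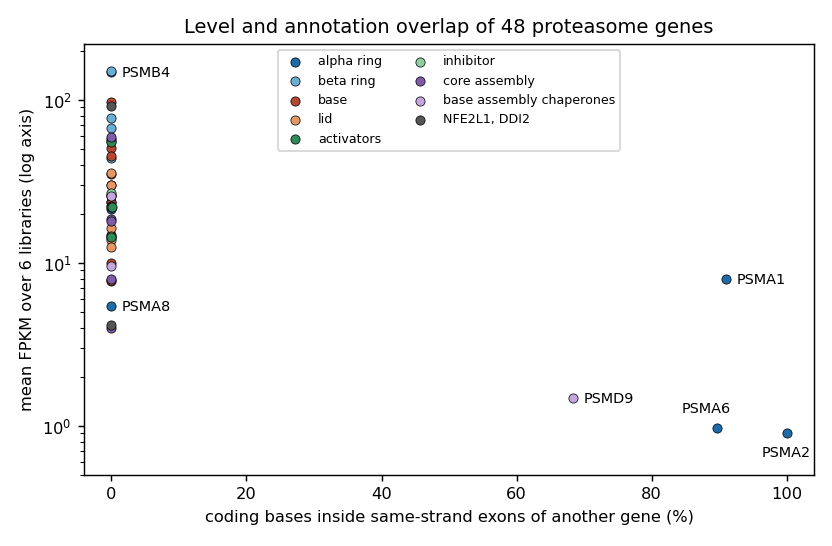
Mean FPKM over the 6 libraries (log axis) of 48 members against the share of their coding bases inside exons of another gene on the same strand, coloured by class. PSMA2, PSMA6, PSMA1 and PSMD9 stand apart at 68.3% to 100%, and the others lie at or near 0%.

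The length in the denominator moved members too. Counted as reads per kilobase of the principal transcript alone, a quantity without the scaling of FPKM, PSMB4, PSMA7 and PSMD4 kept the ranks 1, 2 and 3 among the 49. PSMG4, a core assembly chaperone, went from rank 45 by FPKM to 24, PSMD6 from 41 to 22, and PSME3, the subunit of a nuclear activator ring, from 25 to 7. NFE2L1 went from rank 4 to 8. On this scale the lowest lid subunit was PSMD12 at 267 reads per kilobase, with PSMD6 at 795, and PSMA3 (1092) lay farther above PSMA4 (375) and PSMA5 (346) than by FPKM, so the order by FPKM within a class depends on the length used. Fold changes between groups, which compare a gene with itself, depend on the length only through the added 1 FPKM. The filter and the trend of variance with level also use FPKM, so the length bears on which genes are tested and on the p-values. Some members also share 50-base windows of their transcripts with genes elsewhere in the genome, the highest shares being 29% in PSMC1, 24.7% in PSMC6, 24.6% in PSMA6 and 21.9% in PSMD4, so their counts are uncertain. On the opposite strand, NRDE2 covers 47.7% of the coding bases of PSMC1, and the strand setting of the counting is not given in the sources used here.

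The base holds the ATPase ring, 6 related subunits that pull the substrate into the core, and the sum of their levels lay lower in PRMT1 KD through PSMC3 and PSMC4. All 6 ATPase genes had a log2 fold change below 0, with a median of -0.07, and 1 of them, PSMC3, passed the test. Summed over PSMC1 to PSMC6, the level was 163, 158 and 153 FPKM in control and 135, 136 and 149 FPKM in PRMT1 KD, 88.4% of the control mean. The groups of the sum did not overlap, and the third PRMT1 KD library lay nearest to control. Without PSMC3 and PSMC4 the other 4 ATPases summed to 64.6, 65.5 and 63.2 FPKM in control and 59.7, 60.4 and 67.4 FPKM in PRMT1 KD, where the third library exceeded every control. The other 4 base subunits, PSMD1, PSMD2, PSMD4 and ADRM1, summed to 202, 206 and 192 FPKM in control and 195, 200 and 199 FPKM in PRMT1 KD, 98.9% of the control mean, and these groups overlapped. A test of the ATPases against the other subunits was not made, since the subunits are not replicates.

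PSMC3 (ENSG00000165916), on the minus strand of chromosome 11 at 47418769 to 47426473 (GRCh38), encodes an ATPase of this ring. It had 40.5, 39.6 and 38.3 FPKM in control and 29.1, 29.3 and 32.9 FPKM in PRMT1 KD, from 1442 to 1525 and 960 to 1139 reads. All 3 PRMT1 KD libraries lay below all control libraries, with the third the least low. The means were 39.5 ± 1.07 FPKM and 30.4 ± 2.11 FPKM (SD, n = 3 each), and the transcript fell to 77.1% of control, a log2 fold change of -0.37 (SE 0.058, 95% interval -0.50 to -0.23, limma with Benjamini-Hochberg adjustment over all genes tested, adjusted p = 0.0384). By exact permutation (two-sided) p was 0.1, which is the floor for this design. In bulk RNA, fewer cells with a transcript and less of it per cell cannot be told apart.

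The direction held under every alternative tried, from -0.42 to -0.34, but the call was lost in 8 of 14. The adjusted p was 0.0989 with no filter on low genes, 0.0787 without the trend of variance with level and 0.0589 with the replicate number as a block, and with a library left out it ran from 0.0459 (without the third PRMT1 KD library) to 0.168 (without the first control library), over 0.05 for 5 of the 6 libraries. PSMC3 made up 24.9%, 25% and 25% of the summed ATPase FPKM in control and 21.6%, 21.6% and 22.1% in PRMT1 KD. This share is taken from the same values, and its sum includes PSMC3, so it is no separate support for the call. None of its coding bases lies in exons of another gene, and 2.29% of its 50-base windows occur elsewhere.

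PSMC4 (ENSG00000013275), the ATPase next in size of change, had 57.6, 53.2 and 51.6 FPKM in control and 46.1, 45.9 and 48.4 FPKM in PRMT1 KD. The groups did not overlap. The level was 86.5% of control, with a log2 fold change of -0.20 (95% interval -0.33 to -0.08), and it did not pass the test (limma, adjusted p = 0.106). PSMC2 was at 22.5, 22.9 and 23.2 FPKM in control and 20.7, 20.7 and 23.7 FPKM in PRMT1 KD, where the third library exceeded every control. PSMC1, the lowest regulatory member, was at 8.23, 8.27 and 7.24 FPKM in control and 6.99, 7.36 and 8.08 FPKM in PRMT1 KD. PSMC1, PSMC5 and PSMC6 overlapped between groups, with log2 fold changes of -0.07, -0.02 and -0.01, and the plot of the ATPase genes shows all 6.

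**Figure D4:**
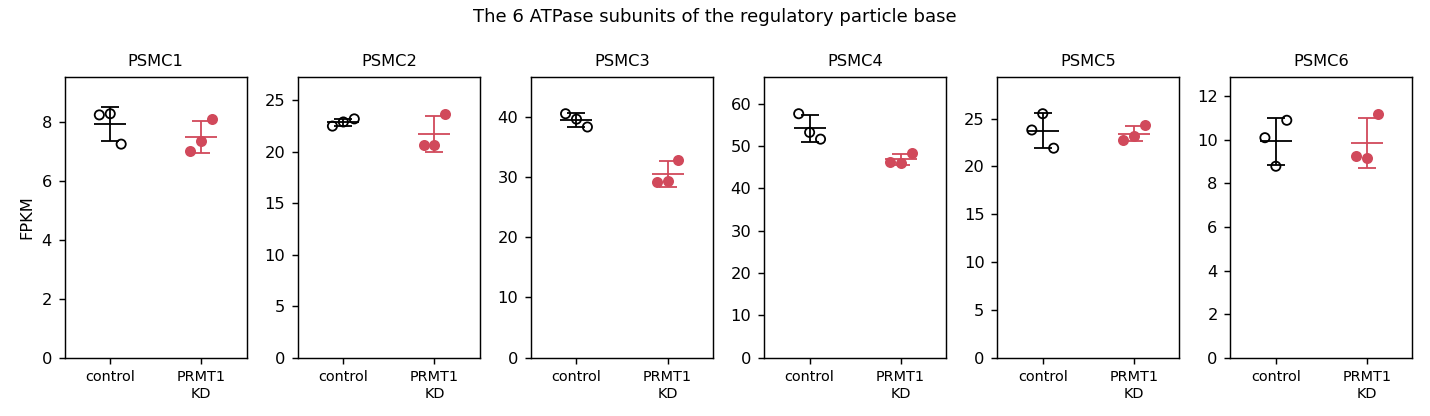
FPKM of the 6 ATPase genes in each library (points), with the mean and SD of 3 libraries (bars), each panel with its own axis from 0. The PRMT1 KD points of PSMC3 and PSMC4 lie below every control point, and those of the other 4 genes overlap the controls.

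The ubiquitin receptors and scaffolds of the base stayed near control. ADRM1, a receptor that also recruits the deubiquitinase UCHL5, had 31.7, 30.6 and 28.3 FPKM in control and 31.3, 30.2 and 28.6 FPKM in PRMT1 KD, with a log2 fold change of -0.01 (95% interval -0.15 to 0.13) whose sign turned with TPM scaling and without any of 3 libraries. PSMD4 had 98.5, 102 and 95.1 FPKM against 93.1, 98.4 and 98.2 FPKM, a log2 fold change of -0.03. PSMD1 and PSMD2, the scaffold subunits, gave 0.04 and -0.03. For these 4 genes the interval lay within 1.25-fold.

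The lid was balanced, with 4 of its 8 subunits below 0 and 4 above, a median log2 fold change of -0.0001 and none called. The summed level was 159, 157 and 151 FPKM in control and 154, 155 and 161 FPKM in PRMT1 KD. PSMD14, the deubiquitinase of the lid, had 12.3, 11.9 and 12.6 FPKM in control and 11.9, 12 and 14.6 FPKM in PRMT1 KD. PSMD7, its partner in the catalytic dimer, had 16.0, 15.7 and 15.3 FPKM and 16.1, 16.7 and 18.8 FPKM, so that every PRMT1 KD library lay above the controls, by a narrow margin in the first. Its log2 fold change was 0.12 (95% interval -0.03 to 0.27, adjusted p by limma = 0.364). Over the whole regulatory class of 18 genes the median was -0.02, with 13 below 0.

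The core particle had a median log2 fold change of -0.05 over 13 tested genes, from -0.17 to 0.06, with 9 below 0, none called and 3 at an unadjusted p under 0.05, all lower. The summed level of the 16 genes was 715, 709 and 684 FPKM in control and 670, 676 and 681 FPKM in PRMT1 KD, 96.1% of the control mean, and these groups lay apart by a small gap. Without PSMA7 the core sum was 97.4% of control and its groups overlapped. The summed regulatory class stood at 96.2% of control, or 99.2% without PSMC3 and PSMC4, and the ratio of the core to the regulatory sum averaged 1.37 in both groups.

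Among the catalytic subunits, PSMB7, which holds the trypsin-like site, had 61.1, 57.4 and 57 FPKM in control and 51.9, 54.7 and 54.8 FPKM in PRMT1 KD, without overlap. Its level was 92.0% of control, with a log2 fold change of -0.12 (95% interval -0.23 to -0.01, adjusted p by limma = 0.231). PSMB5, the target of bortezomib, had 44.6, 45.3 and 43.4 FPKM in control and 43.7, 42.8 and 42.4 FPKM in PRMT1 KD. The first PRMT1 KD library lay above the lowest control, so the groups overlapped, and the log2 fold change was -0.05 (95% interval -0.14 to 0.05). PSMB6, with the caspase-like site, had 70.1, 69.4 and 67.6 FPKM against 66.8, 67.7 and 61.5 FPKM, overlapping by a single library, and a log2 fold change of -0.08 (95% interval -0.20 to 0.04). None of the 3 catalytic genes was called. A change of PSMB5 beyond 1.25-fold lies outside its interval.

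In the alpha ring the lowest fold changes were those of PSMA8 and PSMA7. PSMA7 had 159, 156 and 149 FPKM in control and 142, 143 and 140 FPKM in PRMT1 KD, without overlap and with little spread in PRMT1 KD (SD 1.12 FPKM). The log2 fold change was -0.12 (95% interval -0.22 to -0.03, adjusted p by limma = 0.154). PSMA8, the testis form of this subunit, had 5.71, 5.60 and 6.17 FPKM in control and 5.50, 4.84 and 4.89 FPKM in PRMT1 KD, again without overlap, with a log2 fold change of -0.17 (95% interval -0.33 to -0.004, adjusted p by limma = 0.246).

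The pair was set side by side because reads of an abundant gene could be counted for a scarce relative. Over 744 aligned coding bases 545 were identical (73.2%), the longest identical run was 18 bases, and no window of 50 bases of the PSMA8 transcript occurred in PSMA7. The aligned stretch of coding bases 4 to 93 of PSMA7 and 10 to 99 of PSMA8, taken from the GENCODE 29 transcripts, shows the 22 differences in capitals.
PSMA7: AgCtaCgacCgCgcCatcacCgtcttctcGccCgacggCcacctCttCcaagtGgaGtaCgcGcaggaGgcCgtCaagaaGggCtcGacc
PSMA8: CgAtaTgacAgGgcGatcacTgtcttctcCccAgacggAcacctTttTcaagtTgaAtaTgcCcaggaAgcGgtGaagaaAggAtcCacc

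The activators open the gate without ATP, and all 4 of their genes had a fold change above 0, none of them called. PSME1, which forms a ring with PSME2, had 48.6, 55.7 and 52.7 FPKM in control and 55.6, 59.9 and 60.2 FPKM in PRMT1 KD. The highest control library lay within the range of PRMT1 KD by a small margin. Its log2 fold change was 0.16 (95% interval 0.01 to 0.31, adjusted p by limma = 0.219), the highest of the 46 members. PSME2, its partner, did not follow it, with 20.8, 22.6 and 22.3 FPKM in control and 22.8, 21.6 and 22.1 FPKM in PRMT1 KD and a log2 fold change of 0.02 (95% interval -0.10 to 0.14), although the difference between the partners was not tested. PSME3 had 21.8, 22.2 and 21.8 FPKM against 21.2, 23.5 and 21.9 FPKM, and PSME4, a large activator of the nucleus, 13.9, 13.8 and 14.4 FPKM against 14, 14.1 and 15.7 FPKM, with log2 fold changes of 0.02 and 0.05. The signs of PSME2, PSME3 and PSME4 turned when single libraries were left out.

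PSMF1, a proteasome inhibitor, had 28.0, 26.9 and 26.2 FPKM in control and 27.9, 25.4 and 25.9 FPKM in PRMT1 KD, overlapping, with a log2 fold change of -0.03. The activator class of 5 genes, PSMF1 included, summed to 133, 141 and 137 FPKM in control and 142, 144 and 146 FPKM in PRMT1 KD, 104.9% of control. PSME1 carried this difference, and the other 4 genes summed to 100.5% of control. The class median was 0.02, and the distances between the class medians were smaller than the intervals of most single members.

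Assembly factors moved in both directions and none was called. POMP, which brings beta subunits together and is the first protein the finished core degrades, had 60.0, 60.3 and 62.5 FPKM in control and 59.7, 52.4 and 59.7 FPKM in PRMT1 KD. Its groups did not overlap, but the gap was small and the second PRMT1 KD library set most of the difference (log2 fold change -0.09, 95% interval -0.23 to 0.05). PSMG1, which pairs with PSMG2 to build the alpha ring, had 16.3, 18 and 17.3 FPKM in control and 18.6, 19.1 and 18.7 FPKM in PRMT1 KD, without overlap and with a log2 fold change of 0.12. PSMG2 gave 0.08 with overlapping groups, PSMG4 -0.04 and PSMG3 -0.17 with the widest interval of the tested members, -0.41 to 0.08. Of the chaperones of the base, PSMD10 had 26, 27.5 and 26.9 FPKM in control and 24.3, 24.6 and 25.7 FPKM in PRMT1 KD, without overlap, and its log2 fold change was -0.10 (limma, adjusted p = 0.270). PSMD5 gave 0.11 and PSMD9 -0.02.

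NFE2L1 had 101, 94.8 and 86.5 FPKM in control and 91.6, 89.6 and 85.1 FPKM in PRMT1 KD, overlapping, with a log2 fold change of -0.08 (95% interval -0.23 to 0.07). DDI2, the protease that activates it, had 4.19, 3.57 and 3.86 FPKM in control and 4.25, 4.36 and 4.59 FPKM in PRMT1 KD. Every PRMT1 KD library lay above the controls, the first by little, and the log2 fold change was 0.15 (95% interval -0.02 to 0.32, adjusted p by limma = 0.311). NFE2L1 protein is controlled by its turnover and cleavage, which RNA levels do not show.

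Outside the members, none of the 3 interferon-inducible subunits was called. Their log2 fold changes were 0.07 for PSMB8, 0.006 for PSMB9 and -0.21 for PSMB10. PSMB10 was lowest in the third PRMT1 KD library at 5.31 FPKM against 7.41 to 8.90 FPKM in control. The interval of its log2 fold change, -0.53 to 0.11, reached past a 1.25-fold fall, so such a fall is not excluded. In PSMB10, 59.95% of the coding bases lie inside exons of AC040162.1 on the same strand. PSMB10 held 150 to 273 reads a library and AC040162.1 held 26 to 44. The part of this overlap in the values of PSMB10 was not tested. Of 17 genes that deliver substrate to the proteasome or bind it, none was called. AKIRIN2, which carries proteasomes into the nucleus with IPO9, had 108, 110 and 106 FPKM in control and 93.5, 95.7 and 93.6 FPKM in PRMT1 KD, without overlap (log2 fold change -0.19, adjusted p by limma = 0.0551), and IPO9 had 12.9, 13.1 and 12.2 FPKM against 14.3, 14.1 and 14.9 FPKM (log2 fold change 0.17, adjusted p by limma = 0.133). The importer and its adaptor thus lay on opposite sides of control, with no test past the threshold. UBE3A, a ubiquitin ligase found at the proteasome, had 9.63, 9.29 and 10.5 FPKM against 12.1, 11.8 and 13 FPKM (log2 fold change 0.30, adjusted p by limma = 0.0663). Of 14 genes around the processing of NFE2L1 none was called, and the lowest was SYVN1, a ligase of the endoplasmic reticulum, at -0.18 (adjusted p by limma = 0.0861). None of the 6 ubiquitin and E1 enzyme genes was called either.

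The third PRMT1 KD library was the highest of its group for many members. This was so for 25 of 46 members (54.3%), against 39.8% of all genes tested, and for 13 of 18 regulatory genes and 6 of 13 core genes. The median deviation of the base genes from their mean over the 6 libraries, on the log2 scale, was 0.04, 0.07 and -0.04 in control and -0.08, -0.04 and 0.03 in PRMT1 KD, so the third PRMT1 KD library lay above the third control. For the core genes the medians were 0.06, 0.03 and 0.01 in control and -0.06, -0.03 and -0.001 in PRMT1 KD, without overlap. The median of all genes tested stayed between -0.01 and 0.01 in each library. PRMT1 itself differed little between the PRMT1 KD libraries, at 13.3, 14 and 12.5 FPKM (SD 0.77 FPKM), with the third the lowest. A link between its level and that of the members was not tested.

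**Figure D5:**
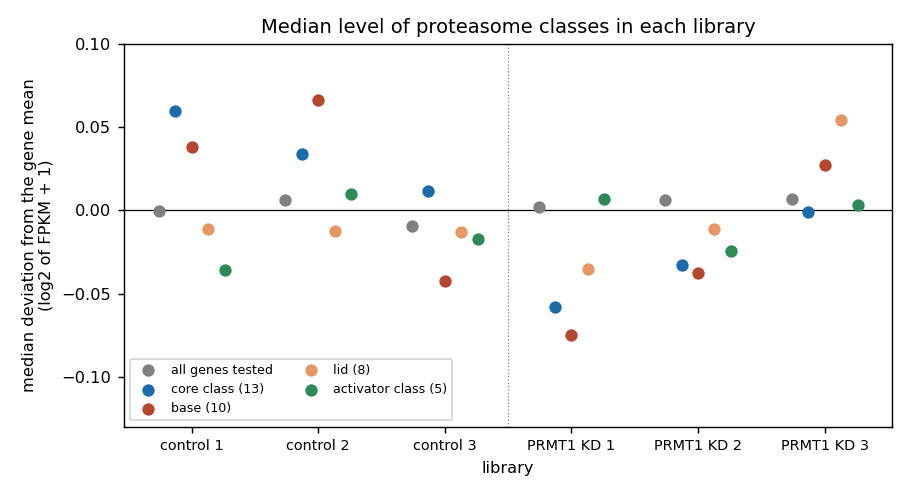
Median deviation of log2(FPKM + 1) from each gene's mean over the 6 libraries, for all genes tested and for 4 groups of members, in each library. The base and lid medians of the third PRMT1 KD library lie above those of the other PRMT1 KD libraries, at 0.03 and 0.05, and the core medians lie above 0 in control and below 0 in PRMT1 KD.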

How the data were processed

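RNA of 3 control and 3 PRMT1 KD libraries of MM.1S cells was analysed, grouped by the sample labels. The deposited table holds FPKM for each gene in every library, together with gene lengths and coordinates. The submitters' processing notes name featureCounts 1.5.0-p3 and hg38, and the aligner, annotation release and strand setting are not given in the sources used here. FPKM multiplied by length gave whole reads for 100% of the values above 0 (tolerance 0.01 of a read), and the deposited values already carry a median-of-ratios scaling between libraries.

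After addition of 1 FPKM and log2 transformation, the 13585 genes averaging 1 FPKM or more were fitted in R 4.3.3 with limma 3.58.1 (moderated variances with a trend, two-sided), and p-values were adjusted by Benjamini-Hochberg. The fit was also run on simulated data with the same dispersion for all genes, and no result here rests on that run. Transcript overlaps and shared 50-base windows came from GENCODE 29, and promoters from RefSeq GRCh38.p14, with Python 3.11.15. Same-numbered libraries deviated together with correlations of 0.02, 0.0631 and 0.101, and the other pairings gave -0.0751 to 0.0186. These small values cannot decide whether the numbers are pairs. The main fit did not take them as pairs, and the replicate block was tried as an alternative.

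The members and all lists (interferon-inducible subunits, substrate delivery, NFE2L1 processing, ubiquitin supply, plasma cell markers and markers of other cell types) were chosen with earlier results of these data known. Values in every library are given for members called, the catalytic subunits, activators and inhibitor, POMP, ADRM1, NFE2L1, DDI2, the 10 largest changes without overlap, and the highest and lowest member of each class; others were chosen after their values were seen. Alternatives were the pseudocount (0.1), the filter (none or 5), TPM scaling, quantile normalization, no trend, voom on the recovered reads, the replicate block and each library left out.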

Additional observations from a re-analysis of the deposited data

How the results depend on the processing

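The counts of called genes depended on the settings, while the class medians kept their sign. Of all genes, 279 were called, 473 with a mean FPKM of at least 5, 35 with no filter, 43 without the trend, 927 with voom on the recovered reads, and 13 to 94 with a library left out. Of the members, 1 was called (PSMC3), 0 with no filter, without the trend and with the replicate number as a block, and 0 to 1 with a library left out, the call holding without the third PRMT1 KD library alone. The replicate block moved no other call among the members. The class medians lay between -0.07 and -0.03 for the core, -0.05 and -0.003 for the regulatory and 0.007 and 0.05 for the activator class. Leaving out members with over 50% of their coding bases in another gene, and levels per principal transcript, were chosen after seeing the data; the former gave a core median of -0.047.

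Among the 22 members recomputed, signs turned in 5, all near 0. The log2 fold change of ADRM1 became 0.0105 with TPM scaling and that of PSMB4 0.0038, or 0.0337 with quantile normalization. With a library left out, the log2 fold change ran from -0.0538 to 0.0261 for ADRM1, -0.0502 to 0.0091 for PSMB4, -0.0182 to 0.0398 for PSME2, -0.0229 to 0.0484 for PSME3 and -0.0010 to 0.0745 for PSME4. The cause was not tested. With 3 libraries a group, changes under about 0.14 on the log2 scale lie within the typical interval.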
